A study of Mus musculus with 31 samples.

Results

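Control testes were set against control ovaries of mouse embryos at embryonic day 14.5, gene by gene, over the autosomes. The testis group, XY Ctr, and the ovary group, XX Ctr, held 4 arrays each, 8 of the 31 arrays of the series, and each array came from the gonads of a single embryo, freed of the mesonephros. The genotype, Sf1-cre+/Tg with Ctnnb1+/f and Sox9+/f, was the same in both groups. The controls therefore also carried the Cre transgene, which Sf1 regulatory sequence drives in gonadal somatic cells, together with 1 floxed allele each of Ctnnb1, encoding beta-catenin, and Sox9, encoding the factor that starts Sertoli cell differentiation. Neither group was a wild type. Of 18193 genes named on the array, 11779 passed a filter on low signal, and 11318 of these were autosomal. The other genes left out after the filter were 401 X-linked genes, 5 Y-linked genes and 55 with no autosomal position in the annotation. Values were array signals on a linear scale, and differences are log2(signal + 16) of XY Ctr minus XX Ctr with the limma standard error (SE).

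The same genes were also compared in other arrays. XY Ctnnb1KO (Sf1-cre+/Tg with Ctnnb1f/f and Sox9+/f, 4 arrays) was set against XX Sox9KO (Sf1-cre+/Tg with Ctnnb1+/f and Sox9f/f, 4 arrays). These are a testis in which the Cre targets both Ctnnb1 alleles and an ovary in which it targets both Sox9 alleles. An earlier analysis of these data had placed them close to control testis and control ovary, which is why they were taken, and they share no array with the controls. They do share the filter and the estimate of the spread.

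By this stage a mouse testis has closed cords, in which Sertoli cells surround germ cells that are turning to mitotic arrest, and an interstitium with steroid-forming fetal Leydig cells, vessels and progenitor cells. In an ovary of the same age, pregranulosa cells rely on canonical WNT signalling and FOXL2, and retinoic acid and BMP signals lead germ cells into meiotic prophase. Because each array measured a whole gonad, fewer cells of a type and less RNA per cell cannot be told apart in any value below.

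The groups matched their labels at the defining markers. Of 15 tested classic testis genes, 14 were higher in XY Ctr, and the geometric mean of their signals lay between 2096.5 and 2363.4 in the XY Ctr arrays and between 115.6 and 149.1 in the XX Ctr arrays. Dmrt1, a germ and Sertoli cell transcription factor, was the member not called, at 0.59 ± 0.30 log2 units, and Sox10 lay under the filter. All 12 classic ovary genes were lower, at 103.4 to 124.7 in XY Ctr and 1057.1 to 1178.3 in XX Ctr. Replicates correlated at 0.9808 to 0.9866 within XY Ctr and 0.9647 to 0.9848 within XX Ctr (Pearson, log2 values across genes). The actin 3' to 5' signal ratio, a sign of RNA quality, ran from 0.991 to 1.108 in XY Ctr and from 0.997 to 1.078 in XX Ctr. The same ratio for Gapdh was higher, at 2.547 to 3.038 in XY Ctr and 2.502 to 2.994 in XX Ctr. For Gapdh the 3' signal thus exceeded the 5' signal on every control array.

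At an adjusted p under 0.05, 2045 autosomal genes (18.1%) were higher in XY Ctr than in XX Ctr and 2206 (19.5%) were lower. The 4251 calls are 37.6% of the autosomal genes tested, and this high background is the yardstick for every gene group below. Most of the calls were small. Of the higher genes, 505 (4.46% of those tested) differed at least 2-fold and 147 (1.3%) at least 4-fold, and of the lower genes 491 (4.34%) and 111 (0.981%). The signals of the groups did not overlap for 1885 higher genes (16.7%) and 1972 lower genes (17.4%). At least 16-fold differences were found in 18 higher and 11 lower genes. The share of genes called varied between chromosomes from 32.5% on chromosome 16 to 45.5% on chromosome 18, and the median difference of all autosomal genes tested was -0.015.

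**Figure D1:**
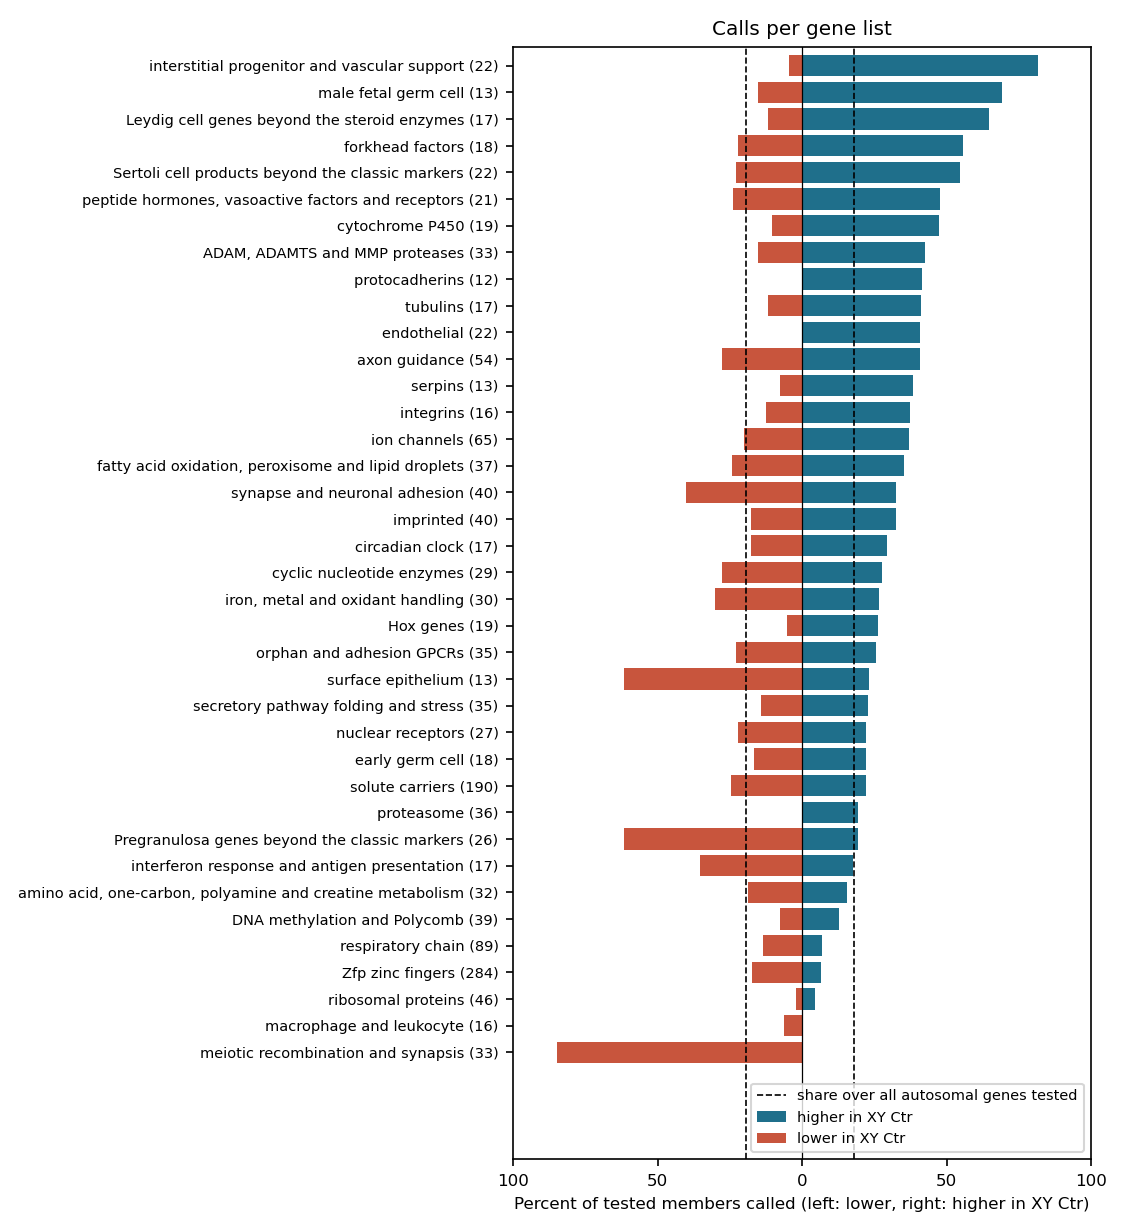
Share of tested members called higher in XY Ctr (bars to the right) or lower in XY Ctr (bars to the left), in percent, for each gene list with 12 or more tested members other than the classic testis and ovary markers, with the number tested in parentheses and dashed lines at the shares over all autosomal genes tested, 18.1% and 19.5%. Among the lists drawn, interstitial genes reached furthest to the right (18 of 22) and meiotic genes furthest to the left (28 of 33), while ribosomal and respiratory chain genes stayed inside the dashed lines.

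Genes known as Sertoli cell products showed large differences outside the classic markers. Sostdc1, a secreted antagonist of BMP and WNT ligands, had signals of 4053.5, 3289.5, 3501.9 and 3760.1 in XY Ctr, against 78.5, 49.2, 40.5 and 37.7 in XX Ctr. Every testis stood far above every ovary, a difference of 5.80 ± 0.26 (adjusted p = 1.58e-17). Defb19, a defensin-family gene of Sertoli cells, had signals of 8966.0, 10647.2, 11129.0 and 10244.8 in XY Ctr, against 803.9, 870.6, 719.1 and 832.1 in XX Ctr (3.64 ± 0.11, adjusted p = 7.13e-22). Its ovarian signals were lower than the testicular ones but well above the array medians of 149.6 to 168.8.

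Of 22 tested Sertoli cell products beyond the classic markers, 12 were higher, 5 lower and 5 not called, with a median of 1.03 (0.65 with the mean of each gene's probe sets), and all 12 higher ones differed at least 2-fold. The higher members included Hsd17b1, a 17-beta-hydroxysteroid dehydrogenase (3.72 ± 0.31), Tesc, encoding the calcium-binding protein tescalcin (3.49 ± 0.16), the cartilage collagen gene Col9a3 (3.38 ± 0.22) and Gdnf, a growth factor for spermatogonial stem cells (3.12 ± 0.30). Gdnf was measured at 163.9 to 201.4 in XY Ctr, against 1.7 to 21.3 in XX Ctr, where the signal is at the bottom of the scale and the added 16 holds the difference down. The list was not uniform: Rasgrp1, an exchange factor for RAS, was lower by -2.11 ± 0.21 and the WNT ligand gene Wnt6 by -0.87 ± 0.11.

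Several of the largest testis-high genes have no textbook place in the Sertoli or Leydig cell. Ccl17, a chemokine that attracts T cells, had signals of 1761.7, 989.1, 1799.2 and 1476.4 in XY Ctr, against 13, 14.6, 15.7 and 45.3 in XX Ctr (5.36 ± 0.32, adjusted p = 1.57e-14). Pmaip1, encoding the pro-apoptotic protein NOXA, stood at 606.0 to 1130.5 in XY Ctr and 9.1 to 27.0 in XX Ctr (4.62 ± 0.25). Mmd2, a membrane protein gene of the progestin and adipoQ receptor family, stood at 2593.9 to 3198.8 in XY Ctr and 71.0 to 139.2 in XX Ctr (4.62 ± 0.22). In none of these 3 genes did any testis come near an ovary. The matrix protein gene Smoc2 (3.89 ± 0.20), the atypical cadherin gene Fat3 (3.84 ± 0.26) and the ankyrin repeat gene Ankrd63 (3.69 ± 0.23) were also higher.

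Among pregranulosa genes beyond the classic markers, 16 of 26 tested were lower in XY Ctr, 5 were higher and 5 were not called, with a median of -0.72. Tnfrsf19, encoding the TNF receptor family member TROY and known as a WNT target, had signals of 145.8, 193.3, 162.0 and 171.7 in XY Ctr, against 2541.8, 2667.9, 2687.4 and 2872.2 in XX Ctr. Its replicates lay within a narrow band in each sex, and the difference was -3.88 ± 0.09 (adjusted p = 3.65e-24). Rnf43, encoding a ubiquitin ligase that removes WNT receptors, was lower by -2.29 ± 0.23, the G protein gamma subunit gene Gng13 by -2.22 ± 0.17, and Kitl, encoding the ligand of the KIT receptor, by -2.07 ± 0.11. The WNT effector genes Sp5 (-1.98 ± 0.31) and Lef1 (-1.01 ± 0.18) were lower as well. Higher members were Cdh1, encoding E-cadherin (1.49 ± 0.37), Etv5, an ETS factor (1.19 ± 0.20), and the WNT receptor gene Fzd1 (0.85 ± 0.12).

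The lower end of the ranking held ovarian genes of several kinds. Calb1, encoding the calcium buffer calbindin, had signals of 10.6, 1.3, 4.0 and 12.7 in XY Ctr, against 1130.7, 830.9, 502.2 and 849.1 in XX Ctr (-5.16 ± 0.26, adjusted p = 2.39e-16). The testis signals were at the bottom of the scale in all 4 arrays. The LY6 domain gene Lypd6b stood at 4.3 to 46.7 in XY Ctr and 611.2 to 814.6 in XX Ctr (-4.03 ± 0.23). Ablim3, an actin-binding LIM protein gene, was lower by -3.88 ± 0.33, the membrane protein genes Tmem171 and Tmem174 by -3.66 ± 0.32 and -3.66 ± 0.34, and Insyn2b, related to a factor of inhibitory synapses, by -3.61 ± 0.18. The homeobox gene Dlx3 (-3.22 ± 0.26), the ciliary gene Cfap54 (-3.20 ± 0.24) and Stum (-3.15 ± 0.24) completed the non-meiotic genes of this end, together with Foxl2os, the noncoding partner of Foxl2 (-3.59 ± 0.20).

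**Figure D2:**
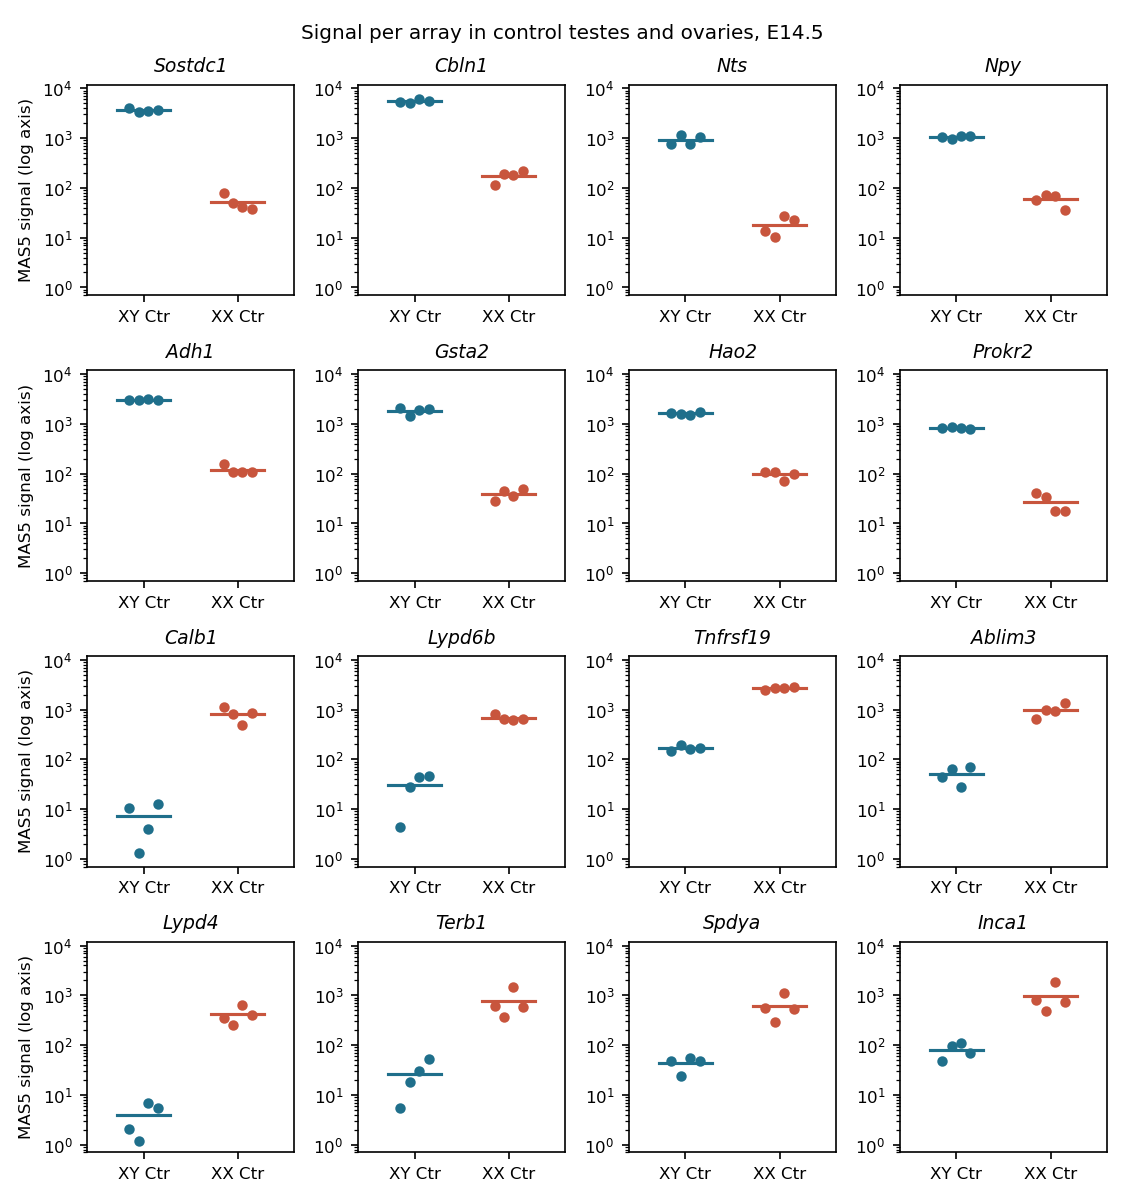
MAS5 signal of 16 of the named genes in each control array on a log axis (points, 1 per array; bar, mean of the group), with the 4 XY Ctr arrays left of the 4 XX Ctr arrays in each panel. The groups do not overlap in any panel; Sostdc1 stands at 3289.5 to 4053.5 in XY Ctr and 37.7 to 78.5 in XX Ctr, and Calb1 at 1.3 to 12.7 in XY Ctr and 502.2 to 1130.7 in XX Ctr.

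Steroid and cholesterol handling differed well beyond the classic enzymes. Cyp11b1, encoding steroid 11-beta-hydroxylase, which is best known from the adrenal cortex, had signals of 522.1, 303.9, 471.4 and 441.9 in XY Ctr, against 6.3, 14.0, 10.0 and 12.6 in XX Ctr (4.06 ± 0.29, adjusted p = 1.41e-12). All 4 ovaries were at the bottom of the scale. Of 17 tested Leydig cell genes other than the steroid enzymes, 11 were higher, 2 lower and 4 not called, with a median of 0.81. Higher were Cxcl12, a chemokine (2.78 ± 0.17), Inha, the inhibin alpha subunit gene that Sertoli cells also express (2.31 ± 0.12), Gramd1b, a sterol transporter gene (2.22 ± 0.15), and Scarb1, the receptor for high-density lipoprotein (2.20 ± 0.09). Mc2r, the receptor for adrenocorticotropic hormone, was higher by 1.54 ± 0.19. The angiotensin receptor gene Agtr1a (-1.18 ± 0.18) and the lysosomal cholesterol exporter gene Npc1 (-0.77 ± 0.11) were lower.

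Several enzyme genes of detoxification and oxidation were among the largest differences, and they are named for their size, not as members of a list. Adh1, an alcohol dehydrogenase that oxidises retinol, had signals of 3021.2, 2988.4, 3241.4 and 3061.3 in XY Ctr, against 158.2, 110.3, 109.4 and 107.4 in XX Ctr (4.51 ± 0.18, adjusted p = 1.79e-18). The glutathione transferase gene Gsta2 differed by 5.07 ± 0.20, the peroxisomal hydroxyacid oxidase gene Hao2 by 3.88 ± 0.17, the epoxide hydrolase gene Ephx1 by 3.85 ± 0.20 and the carboxylesterase gene Ces1d by 3.81 ± 0.23. Of 73 cytochrome P450 genes on the array 19 were tested. Of these 19, 9 were higher (47.4%) and 2 lower, but the 4 largest differences belonged to Cyp11b1 and 3 classic markers. With the filter on the 2 control groups 13 were tested, with 8 higher and 0 lower. The 2 lower genes, Cyp4f13 (-0.47 ± 0.18) and Cyp4v3 (-0.45 ± 0.17), differed by less than 2-fold, and without XX Ctr replicate 1 neither was called. Cyp4f13 also lost its call without XX Ctr replicate 2, XY Ctr replicate 1 or XY Ctr replicate 4, and Cyp4v3 without XX Ctr replicate 3 or 4 or XY Ctr replicate 1 or 2.

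Outside the classic markers, the interstitial list had the highest share of higher genes among lists with 12 or more tested members. Of 22 tested genes, 18 (81.8%) were higher in XY Ctr, 1 was lower and 3 were not called, with a median of 1.05. The hedgehog targets led: Hhip, encoding a hedgehog-binding membrane protein, stood at 558.5 to 621.5 in XY Ctr and 32.8 to 44.4 in XX Ctr (3.49 ± 0.22), and the pathway's transcription factor gene Gli1 at 483.9 to 660.7 and 33.9 to 55.1 (3.31 ± 0.29). Ptch1, the hedgehog receptor, had high signals in both sexes, 6282.9 to 6404.7 in XY Ctr and 1785.5 to 2293.9 in XX Ctr, and a smaller difference (1.61 ± 0.09). Smooth muscle actin Acta2 (1.58 ± 0.12), the PDGF receptor genes Pdgfra (1.42 ± 0.11) and Pdgfrb (1.03 ± 0.13) and the progenitor factor gene Tcf21 (1.07 ± 0.11) were higher too. The member in the other direction was the integrin gene Itga8 (-0.63 ± 0.15).

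Endothelial genes showed the same direction at a much smaller size. Of 22 tested, 9 were higher (40.9%), none was lower and 13 were not called, with a median of 0.26, and Gja5, an arterial gap junction gene, was the only member past 2-fold. It stood at 175.9 to 228.6 in XY Ctr and 48.3 to 62.6 in XX Ctr (1.55 ± 0.17). Cdh5, the adhesion molecule of all endothelium, differed by 0.53 ± 0.12, whereas Pecam1 (-0.10 ± 0.14) and Kdr (-0.39 ± 0.17), equally general endothelial genes, were not called. Kdr was called lower without XX Ctr replicate 1 (-0.46, adjusted p = 0.0495) or XY Ctr replicate 1 (-0.57, adjusted p = 0.00915). Macrophage and leukocyte genes barely separated: of 16 tested, C1qa, a complement gene, alone was called (-0.64 ± 0.21). The C1qa call was lost without XY Ctr replicate 1 (-0.53, adjusted p = 0.0642), and without XX Ctr replicate 1 there were 2 members called higher.

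Peptide hormones and their receptors were prominent. Of 21 tested, 10 were higher in XY Ctr (47.6%), 5 were lower and 6 were not called, with a median of 0.34. With the filter on the arrays of both control groups alone, 15 were tested, with 9 higher, 4 lower and a median of 0.90. Nts, the precursor of neurotensin, a gut and brain peptide, had signals of 753.8, 1171.2, 769.1 and 1034.1 in XY Ctr, against 13.6, 10.1, 27.0 and 22.4 in XX Ctr (4.79 ± 0.29, adjusted p = 1.66e-14). Npy, the precursor of neuropeptide Y, had signals of 1064.1, 945.4, 1109.8 and 1123.5 in XY Ctr, against 58.0, 72.5, 67.7 and 36.3 in XX Ctr (3.88 ± 0.22, adjusted p = 6.36e-15). Both peptide genes were thus above the array median in every testis and below it in every ovary.

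Several receptor genes were higher too, and the lower receptor genes Npr2 and Calcrl are given further below. Oxtr, the oxytocin receptor, stood at 410.6 to 510.7 in XY Ctr and 14.8 to 24.6 in XX Ctr (3.74 ± 0.25), while the oxytocin gene Oxt itself was not called (0.42 ± 0.22). Prokr2, a prokineticin receptor gene outside the list, stood at 778.0 to 887.2 in XY Ctr and 17.7 to 41.4 in XX Ctr (4.31 ± 0.23). Crhr1, the receptor for corticotropin-releasing hormone, was higher by 2.28 ± 0.28, and Sstr4, a somatostatin receptor gene, by 2.50 ± 0.16.

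The natriuretic peptide members went both ways. Nppc, encoding C-type natriuretic peptide, stood at 662.9 to 826.2 in XY Ctr and 30.9 to 105.5 in XX Ctr (3.27 ± 0.26), and the clearance receptor gene Npr3 was higher by 0.90 ± 0.21. Npr2, the signalling receptor for the same peptide, was lower by -0.91 ± 0.14. Adm, encoding the vessel-relaxing peptide adrenomedullin, stood at 1919.8 to 3205.3 in XY Ctr and 5006.9 to 8639.8 in XX Ctr (-1.37 ± 0.17), and its receptor gene Calcrl was lower by -0.80 ± 0.15. Angiotensinogen, Agt, was higher by 2.84 ± 0.38 and the peptide-processing enzyme gene Pcsk5 by 1.86 ± 0.13.

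Genes of meiotic recombination and synapsis were lower nearly throughout. Of 33 tested, 28 were lower in XY Ctr (27 of them at least 2-fold), none was higher and 5 were not called, and the median was -2.08. Stra8, the retinoic acid target that starts meiotic entry, had signals of 284.2, 213.4, 256.5 and 165.0 in XY Ctr, against 3127.8, 3962.1, 6182.5 and 5079.4 in XX Ctr (-4.21 ± 0.32, adjusted p = 4.65e-12). Meioc, which holds germ cells in the meiotic programme, had signals of 75.1, 51.7, 76.5 and 109.2 in XY Ctr, against 2819.0, 2040.4, 2872.5 and 2074.7 in XX Ctr (-4.73 ± 0.30, adjusted p = 9.7e-14). No testis approached the ovarian level of either gene.

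The lower genes covered the stages of early prophase. They included the meiotic cohesin genes Rec8 (-3.67 ± 0.16) and Smc1b (-3.03 ± 0.34), the complex that ties telomeres to the nuclear envelope, Terb1 (-4.12 ± 0.59) and Majin (-3.83 ± 0.49), the break-forming enzyme gene Spo11 (-1.23 ± 0.26), the hotspot methyltransferase gene Prdm9 (-2.97 ± 0.54) and the synaptonemal complex genes Sycp3 (-2.46 ± 0.36) and Sycp1 (-1.97 ± 0.30). The members not called were Mnd1 (0.30 ± 0.18), Trip13 (0.15 ± 0.10), Psmc3ip (0.12 ± 0.11), Mlh3 (-0.07 ± 0.14) and Brip1 (-0.18 ± 0.15). Psmc3ip and Mnd1 encode the partners of a cofactor of strand exchange.

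Other genes at the lower end act in meiosis or are known from the male germ line. Spdya, a cyclin-like activator of CDK2 that acts at meiotic telomeres, was lower by -3.29 ± 0.52. Inca1, an inhibitor of cyclin A1 with CDK2, was lower by -3.23 ± 0.56. Lypd4, a LY6 domain protein gene, had signals of 2.1, 1.2, 6.9 and 5.4 in XY Ctr, against 346.0, 260.1, 647.2 and 406.9 in XX Ctr (-4.37 ± 0.58). Ugt8a, the ceramide galactosyltransferase gene, was lower by -3.35 ± 0.41.

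The promoters of these 4 genes are shown as examples that hold the motif CNCCTCAG, which STRA8 is known to bind in mice. They were picked after the search, and the motif is not confined to genes lower in XY Ctr: it is also in the promoters of the testis-high genes Ccl17 (at 31) and Ankrd63 (at -6), and it was not found in those of Stra8, Meioc, Rec8 and Terb1. Promoters run from 250 bases before to 50 bases after the transcription start (RefSeq, GRCm38.p6), 5′ to 3′ on the strand of the gene, and capitals mark matches on either strand. The Ugt8a promoter also holds the TCF/LEF motif ATCAAAG, as CTTTGAT on the strand shown. Lypd4 lies at chr7:24869642-24869941 (minus strand), Inca1 at chr11:70700106-70700405 (minus strand), Spdya at chr17:71551811-71552110 (plus strand) and Ugt8a at chr3:125938603-125938902 (minus strand).
Lypd4: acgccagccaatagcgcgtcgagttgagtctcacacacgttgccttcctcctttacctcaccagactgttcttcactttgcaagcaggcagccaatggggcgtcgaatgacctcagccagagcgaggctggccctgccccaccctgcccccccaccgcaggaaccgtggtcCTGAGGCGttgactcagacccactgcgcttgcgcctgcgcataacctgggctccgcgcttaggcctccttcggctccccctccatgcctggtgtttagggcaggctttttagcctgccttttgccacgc
Inca1: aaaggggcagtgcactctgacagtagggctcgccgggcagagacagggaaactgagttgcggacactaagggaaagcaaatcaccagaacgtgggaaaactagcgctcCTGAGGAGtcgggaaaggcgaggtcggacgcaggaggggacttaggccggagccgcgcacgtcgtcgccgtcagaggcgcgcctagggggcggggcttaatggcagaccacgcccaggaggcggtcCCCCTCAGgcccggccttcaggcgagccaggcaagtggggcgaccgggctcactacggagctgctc
Spdya: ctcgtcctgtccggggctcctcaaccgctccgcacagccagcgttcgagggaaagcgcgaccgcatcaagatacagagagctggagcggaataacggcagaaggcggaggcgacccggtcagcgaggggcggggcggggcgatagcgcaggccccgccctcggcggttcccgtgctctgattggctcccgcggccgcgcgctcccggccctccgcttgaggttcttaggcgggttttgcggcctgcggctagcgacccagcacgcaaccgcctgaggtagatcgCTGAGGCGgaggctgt
Ugt8a: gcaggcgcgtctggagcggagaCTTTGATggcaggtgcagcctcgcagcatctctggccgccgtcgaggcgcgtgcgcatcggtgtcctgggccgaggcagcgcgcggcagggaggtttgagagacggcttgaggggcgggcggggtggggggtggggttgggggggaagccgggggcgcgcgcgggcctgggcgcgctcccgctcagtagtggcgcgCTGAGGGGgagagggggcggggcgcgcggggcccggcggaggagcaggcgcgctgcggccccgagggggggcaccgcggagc

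Counting from the start site, the STRA8 motif begins at -79 in Lypd4, at -142 and -16 in Inca1, at 35 in Spdya and at -32 in Ugt8a. It was present in 68 of 495 promoters of genes at least 2-fold lower in XY Ctr (13.7%), in 39 of 473 promoters of genes at least 2-fold higher (8.25%) and in 1097 of 11764 promoters of all autosomal genes tested (9.33%). In the meiotic list it was found in 6 of 32 promoters (18.8%), and the NR5A1 motif AAGGTCA in 3 of 32 (9.38%, against 3.2% of all). These are shares of promoters, not of genes, since some genes have several and others none. The 495 lower promoters belong to 383 genes, the 473 higher to 366, the 11764 to 9166 and the 32 meiotic to 27. The other 5 motifs searched, that of NR5A1, ACAATGG of SOX factors, ATCAAAG of TCF/LEF factors, AGATAAG of GATA factors and GTAAACA of forkhead factors, were each in 0.846% to 3.59% of the promoters of genes at least 2-fold higher or lower and in 1.82% to 3.2% of all. Both strands were read, and a match shows only that the letters are there.

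The ovarian arrays differed among themselves in meiosis. The geometric mean over the 33 tested members was 226.8, 211.5, 246.0 and 237.8 in XY Ctr, against 888.0, 802.9, 1488.5 and 1006.8 in XX Ctr. Of the 28 called genes, 27 were highest in XX Ctr replicate 3 and 16 were lowest in XX Ctr replicate 2. Rec8 did not follow this order, at 2401.9, 2864.5, 2804.3 and 2782.1 in XX Ctr. Without XX Ctr replicate 3, 27 members were called lower and the list median was -1.83.

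The histocompatibility genes went different ways. In the list of interferon response and antigen presentation, 3 of 17 tested were higher (17.6%), 6 lower and 8 not called. Both classical class I genes tested were lower and varied among the ovaries. H2-K1 had signals of 579.8, 441.1, 433.8 and 524.4 in XY Ctr, against 1995.9, 1086.3, 3404.4 and 1675.9 in XX Ctr (-1.90 ± 0.45, adjusted p = 0.00101). H2-D1 had signals of 152.9, 82.2, 75.2 and 77.0 in XY Ctr, against 550.6, 302.3, 1017.8 and 410.1 in XX Ctr (-2.29 ± 0.49, adjusted p = 0.000406). Both, like Terb1, Spdya and Inca1, were highest in XX Ctr replicate 3 and lowest in replicate 2, a likeness seen after the values were known. Whether germ cells are the source was not tested. Other class I genes did not share this: H2-M3 had signals of 219.4, 118.1, 175.1 and 146.5 in XY Ctr, against 108.4, 62.1, 84.3 and 92.3 in XX Ctr (0.80 ± 0.24, adjusted p = 0.00904). H2-T24 was not called (0.25 ± 0.14), except without XX Ctr replicate 2 (0.38, adjusted p = 0.0298). B2m, the light chain that class I molecules need, was higher in XY Ctr (0.90 ± 0.09), as was the class II gene H2-Aa, at 157.4 to 464.2 in XY Ctr and 18.9 to 50.7 in XX Ctr (2.32 ± 0.52). The other class II gene tested, H2-Ab1, was not called. It stood at 171.8 to 381.2 in XY Ctr and 252.8 to 475.9 in XX Ctr (-0.49 ± 0.31).

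**Figure D3:**
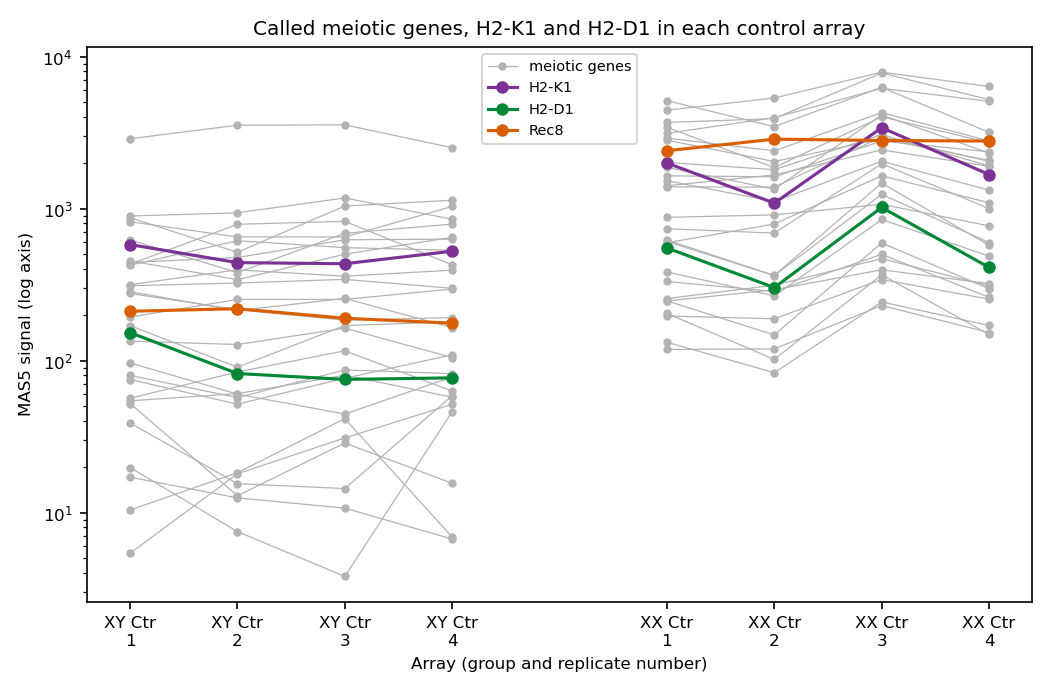
MAS5 signal (log axis) of the 28 called meiotic genes, with Rec8 in colour, and of H2-K1 and H2-D1 in each XY Ctr array (left) and XX Ctr array (right); lines join the values of a gene and replicates have no order. In the XX Ctr arrays H2-K1 runs 1995.9, 1086.3, 3404.4 and 1675.9, and 27 of the 28 meiotic genes peak in replicate 3.

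Genes of male fetal germ cells were mostly higher in XY Ctr. Of 13 tested, 9 were higher (69.2%), 2 lower and 2 not called, with a median of 0.89. With the filter on the 2 control groups 10 were tested, with 6 higher, 2 lower and a median of 0.66. Lefty2, encoding an inhibitor of NODAL signals, had signals of 1450.0, 1785.9, 1855.9 and 1497.7 in XY Ctr, against 68.8, 75.3, 64.2 and 90.2 in XX Ctr (4.20 ± 0.16, adjusted p = 3.45e-19). The related Lefty1 (3.03 ± 0.32), the NODAL coreceptor gene Tdgf1 (2.40 ± 0.36) and Nodal itself (1.48 ± 0.25) were higher as well. Piwil4, encoding the nuclear PIWI protein of fetal male germ cells, varied widely among testes, at 1414.7, 357.4, 896.1 and 1677.4, against 238.4, 304.7, 286.8 and 189.5 in XX Ctr (1.84 ± 0.39). XY Ctr replicate 2 came near the ovaries without overlapping them. Tex101, a surface protein gene of later germ cells, was lower by -2.97 ± 0.52 and the piRNA pathway helicase gene Mov10l1 by -1.08 ± 0.32.

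Germ cell genes common to both sexes moved little as a group. Of 18 tested, 4 were higher, 3 lower and 11 not called, with a median of 0.13 (0.05 without XX Ctr replicate 1 and 0.22 without replicate 2). The pluripotency-associated gene Dppa4 stood at 1137.5 to 1931.0 in XY Ctr and 214.6 to 550.4 in XX Ctr (1.97 ± 0.39), and Tfap2c, a factor of primordial germ cells, at 588.5 to 764.3 in XY Ctr and 1246.8 to 2687.5 in XX Ctr (-1.40 ± 0.41). Ddx4, the germ cell helicase, was lower by -0.47 ± 0.18 (adjusted p = 0.0401), a call that was lost when any of XX Ctr replicates 2, 3 and 4 or XY Ctr replicates 1, 2 and 3 was left out (adjusted p up to 0.102). With single arrays left out, the list had 2 to 6 higher and 1 to 3 lower members. Oocyte genes were also split, with Figla, the factor of follicle formation, lower by -2.02 ± 0.43 and Sohlh2 by -1.46 ± 0.19, but Uchl1 (1.33 ± 0.21), Ooep (1.06 ± 0.21) and Dppa3 (1.05 ± 0.30) higher. Of 10 tested oocyte genes 3 were lower, and 5 when the fit held only the 8 control arrays.

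A set of genes best known from neurons differed strongly in both directions. Among synapse and neuronal adhesion genes, 110 were on the array and 40 were tested. Of these 40, 13 were higher (32.5%), 16 were lower and 11 were not called, with 9 and 12 past 2-fold. With the filter on the 2 control groups 27 were tested, with 10 higher and 11 lower. Cbln1, a secreted organiser of cerebellar synapses, had signals of 5261.1, 5134.9, 6126.5 and 5684.7 in XY Ctr, against 115.6, 190.5, 182.0 and 217.4 in XX Ctr (4.88 ± 0.22, adjusted p = 1.9e-17). Its relatives Cbln4, a known Sertoli cell product (2.90 ± 0.18), and Cbln2 (1.95 ± 0.26) were higher as well, as was the synaptic adhesion gene Nlgn1 (1.87 ± 0.27). Lower were the leucine-rich repeat gene Lrrn1, at 395.0 to 552.8 in XY Ctr and 2856.7 to 4078.5 in XX Ctr (-2.83 ± 0.13), the contactin gene Cntn4 (-2.51 ± 0.16), and the transmitter receptor genes Grik3 (-1.92 ± 0.29) and Gabra4 (-1.69 ± 0.17). For each of these genes no testis overlapped an ovary.

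Axon guidance genes split likewise. Of 54 tested, 22 were higher (40.7%), 15 lower and 17 not called. The SLIT receptor gene Robo2 stood at 661.6 to 1074.4 in XY Ctr and 86.0 to 141.7 in XX Ctr (2.77 ± 0.24), and the ephrin gene Efna5 at 845.6 to 1023.6 and 162.8 to 245.4 (2.14 ± 0.14). The semaphorin gene Sema4f (-1.71 ± 0.16), the semaphorin coreceptor gene Plxna4 (-1.48 ± 0.13) and the ephrin gene Efna1 (-1.28 ± 0.12) were lower.

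Neural crest and glial markers were thin on these arrays: of 10 on the array 3 were tested. Tubb3, the neuronal tubulin, stood at 252.5 to 569.6 in XY Ctr and 3.6 to 156.6 in XX Ctr (2.67 ± 0.49), Erbb3 differed by 1.07 ± 0.24 and Fabp7 by -0.43 ± 0.22, not called. Stmn2, Elavl4, Phox2a, Th, Sox10, Foxd3 and S100b lay under the filter. The summed signal of the 3 tested markers ran from 734 to 1089 in XY Ctr and from 362 to 614 in XX Ctr, and its part in the neuronal gene differences was not tested.

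Among ion channels, 174 genes were on the array and 65 were tested, of which 24 were higher (36.9%), 13 lower and 28 not called. With the filter on the 2 control groups 53 were tested, with 21 higher and 13 lower. The potassium channel genes Kcnd3 (2.80 ± 0.17), Kcns2 (3.20 ± 0.33) and Kcnk3 (2.26 ± 0.19) were higher. Kcns2 stood at 150.3 to 225.4 in XY Ctr and 1.2 to 14.0 in XX Ctr, and Kcnd3 at 629.9 to 716.3 and 55.4 to 108.0. Lower were Kcnip1, a partner of the channel family of Kcnd3 (-2.82 ± 0.20), Kcnq1 (-2.80 ± 0.32) and the chloride channel gene Ano1, at 291.2 to 452.7 in XY Ctr and 1676.9 to 2375.5 in XX Ctr (-2.42 ± 0.14). Solute carriers, by contrast, stayed near the background, with 42 of 190 tested higher (22.1%) and 47 lower. Their largest differences were in Slc45a3 (2.73 ± 0.18) and Slc13a2, a citrate transporter gene (2.67 ± 0.29), and in Slc6a7, a proline transporter gene (-2.02 ± 0.33).

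Lipid genes differed by enzyme rather than as a block. Of 37 tested genes of fatty acid oxidation, peroxisomes and lipid droplets, 13 were higher (35.1%), 9 lower and 15 not called, with a median of -0.06 (-0.14 without XX Ctr replicate 3). The acyl-CoA synthetase gene Acsbg1 (1.81 ± 0.19), the elongase gene Elovl6 (1.59 ± 0.13) and the desaturase gene Fads2 (1.43 ± 0.12) were higher. The droplet coat gene Plin2 stood at 1007.8 to 1146.5 in XY Ctr and 2202.2 to 2378.6 in XX Ctr (-1.12 ± 0.09). Pparg, the lipid-sensing nuclear receptor, had signals of 9.0, 10.8, 4.0 and 23.1 in XY Ctr, against 82.4, 80.4, 379.3 and 234.8 in XX Ctr (-2.70 ± 0.63, adjusted p = 0.000999). The ovarian signals of Pparg spread widely, and 2 of the 4 lay below their array median.

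Amino acid and one-carbon metabolism was less divided, with 5 of 32 tested higher (15.6%), 6 lower and 21 not called. The branched-chain transaminase gene Bcat1 (-1.95 ± 0.19) and the cystathionine lyase gene Cth (-1.59 ± 0.23) were lower and the folate enzyme gene Aldh1l1 (1.71 ± 0.22) was higher. In iron, metal and oxidant handling, 8 of 30 were higher (26.7%) and 9 lower. The metallothionein genes Mt1 (-1.57 ± 0.32) and Mt2 (-1.71 ± 0.42) were lower, and the metalloreductase genes Steap4 (2.03 ± 0.25) and Steap1 (1.47 ± 0.21) and the peroxidase gene Gpx3 (1.59 ± 0.15) were higher.

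Erythroid markers moved with the metallothioneins in XX Ctr replicate 1. The geometric mean of the 9 tested erythroid genes was 344.9, 515.1, 621.8 and 510.1 in XY Ctr, against 1910.1, 913.2, 869.3 and 558.6 in XX Ctr, and their summed signal ran from 14358 to 23810 in XY Ctr and from 23348 to 31969 in XX Ctr. Mt1 had signals of 542.3, 808.3, 888.7 and 648.5 in XY Ctr, against 3649.6, 1568.5, 2174.0 and 1652.4 in XX Ctr, so its highest value was in the same array. Of the 9 erythroid genes 4 were lower in XY Ctr, and without XX Ctr replicate 1 there were 3, since Rhag, an erythrocyte membrane protein gene, was lost (-0.82, adjusted p = 0.113, against -1.44 ± 0.46 with all arrays). The part of red blood cells in the metallothionein difference was not tested.

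Metalloproteases, serpins, integrins and protocadherins each had more higher than lower genes. Of 33 tested metalloproteases of the ADAM, ADAMTS and MMP families, 14 were higher (42.4%) and 5 lower, with Adam23 (2.48 ± 0.17) and Adamts5 (2.05 ± 0.15) higher and Adamts19 (-1.60 ± 0.27), a gene of the fetal ovary, lower. Among 13 serpins 5 were higher and 1 lower, and Serpina5, a protease inhibitor gene, stood at 144.3 to 234.1 in XY Ctr and 0.6 to 4.2 in XX Ctr (3.41 ± 0.24). Of 16 integrins 6 were higher and 2 lower, led by Itga4 (1.78 ± 0.27) and Itga9 (1.56 ± 0.12). Of 12 protocadherins 5 were higher and none lower, led by Pcdh8, at 1978.1 to 2461.0 in XY Ctr and 359.3 to 534.2 in XX Ctr (2.33 ± 0.15). Without XY Ctr replicate 2, or without replicate 3, 3 protocadherins were called higher, and without XX Ctr replicate 3 there was 1 lower. Of 7 claudins, genes of tight junctions, 1 was higher and 1 lower.

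Keratins and surface epithelium genes had more lower than higher members. Of 11 keratins tested, 5 were lower in XY Ctr, 2 higher and 4 not called, and 1 was higher when any of XX Ctr replicates 3 and 4 or XY Ctr replicates 1, 2 and 3 was left out. The simple epithelial keratin pair Krt8 and Krt18 was lower by -1.85 ± 0.16 and -1.81 ± 0.12. Krt18 stood at 463.9 to 693.5 in XY Ctr and 1808.9 to 2193.6 in XX Ctr, so no array crossed. Of 13 tested surface epithelium genes 8 were lower (3 at least 2-fold) and 3 higher (1 at least 2-fold), with a median of -0.65. Differences in this list ran from -3.5 to 1.49, and only lower members are named here. They include the classic ovary marker Lgr5, the mesothelial gene Upk3b (-0.65 ± 0.09) and Wt1 (-0.68 ± 0.12), the last also a supporting cell gene. Of 5 tested markers of the mesonephric duct, tubules and rete, Emx2 (-1.26 ± 0.14), Krt7 (-0.82 ± 0.11) and Krt19 (-0.69 ± 0.22) were lower, Lhx1, at 157.6 to 293.9 in XY Ctr and 10.2 to 49.3 in XX Ctr, was higher (2.44 ± 0.29) and Pax8 was not called (-0.37 ± 0.25).

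Imprinted genes, expressed from 1 parental allele, were higher in 13 and lower in 7 of 40 tested, and 20 were not called. Grouped by chromosome domain after the values had been seen, they fell into unlike patterns. On chromosome 12 the 4 measured genes of the Dlk1 to Mirg domain were all higher: Dlk1, paternally expressed (1.20 ± 0.18), and the maternally expressed noncoding genes Meg3 (0.75 ± 0.12), Rian (0.51 ± 0.11) and Mirg (1.03 ± 0.14). Dlk1 had signals of 5124.0, 4288.8, 4606.8 and 4441.4 in XY Ctr, against 1957.9, 1975.2, 2070.3 and 1978.0 in XX Ctr.

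On distal chromosome 7 genes of a single imprinted cluster went different ways. Phlda2, a growth-limiting gene best known from placenta, had signals of 86.5, 35.8, 85.8 and 63.7 in XY Ctr, against 386.7, 979.1, 496.5 and 826.7 in XX Ctr (-2.99 ± 0.33, adjusted p = 1.54e-08). Cdkn1c, a cell cycle inhibitor gene, stood at 2365.2 to 3171.8 in XY Ctr and 5076.9 to 7967.1 in XX Ctr (-1.23 ± 0.13). Kcnq1 was lower (-2.80 ± 0.32), and so was Kcnq1ot1, the paternally expressed noncoding RNA that silences the cluster in cis (-0.92 ± 0.19). Cd81 (0.45 ± 0.08) and Tssc4 (0.44 ± 0.14) were higher, although Tssc4 lost its call without XX Ctr replicate 2, XX Ctr replicate 4 or XY Ctr replicate 1. Ascl2 (0.89 ± 0.45) and Nap1l4 (-0.13 ± 0.07) were not called, though Nap1l4 was without XX Ctr replicate 1 (-0.18, adjusted p = 0.0405). The neighbouring growth factor gene Igf2 was not called (-0.05 ± 0.09, and 0.01 without XY Ctr replicate 1).

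**Figure D4:**
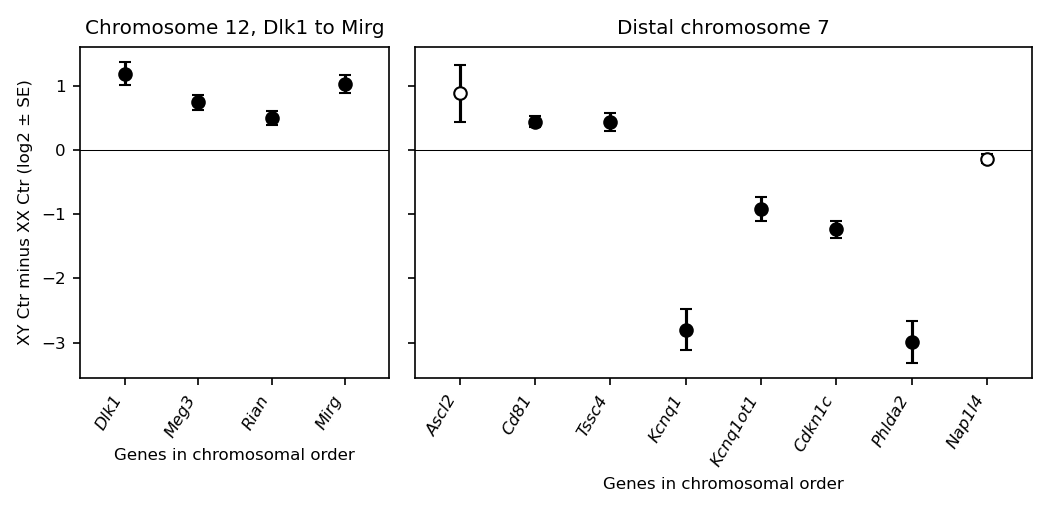
Difference of log2(signal + 16), XY Ctr minus XX Ctr, with limma SE, of imprinted genes on chromosome 12 (left) and distal chromosome 7 (right) in chromosomal order; filled points were called at an adjusted p under 0.05 and open points were not. The 4 genes on chromosome 12 lie between 0.51 and 1.20, and the chromosome 7 genes run from -2.99 to 0.89.

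Hox genes, which set position along the body axis, had few calls outside 1 cluster. Of 19 tested, 5 were higher and 1 lower (0 to 2 lower with single arrays left out). They were split by cluster after the values had been seen. Of 5 tested Hoxd genes 4 were higher (median 0.83), against none of 3 in Hoxa, none of 4 in Hoxb and none of 6 in Hoxc. The 1 lower gene was in Hoxb. The fifth higher gene, Hoxd3os1, is an antisense gene of the Hoxd cluster (0.78 ± 0.24). Hoxd9 stood at 5431.5 to 6543.5 in XY Ctr and 2474.4 to 3784.2 in XX Ctr (0.92 ± 0.12), and Hoxd10 at 866.5 to 1130.9 and 413.0 to 590.7 (1.05 ± 0.17). Forkhead factors had 10 of 18 higher (55.6%) and 4 lower, with Foxs1, a gene of pericytes, at 1.86 ± 0.15 and Foxl2 at -4.61 ± 0.15.

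Among nuclear receptors 6 of 27 were higher (22.2%) and 6 lower, including the steroidogenic regulator Nr5a1 (0.86 ± 0.10), also known as Sf1, whose regulatory sequence drives the Cre, and the progesterone receptor gene Pgr (-0.88 ± 0.15). Of 17 clock genes 5 were higher (29.4%) and 3 lower, with 3 higher without XX Ctr replicate 1 or XY Ctr replicate 1. Bhlhe40, a repressor of the clock, had the largest difference, at 668.1 to 793.4 in XY Ctr and 100.1 to 173.9 in XX Ctr (2.30 ± 0.25). DNA methylation and Polycomb genes lay below the background, with 5 of 39 higher (12.8%) and 3 lower, and Pcgf5, a Polycomb ring finger gene, alone passed 2-fold (-1.19 ± 0.14). In the Zfp zinc finger family 19 of 284 were higher (6.69%) and 49 lower, and Zfp541, known from meiotic germ cells, had the largest difference (-2.51 ± 0.41).

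Housekeeping groups gave few or small differences. Of 46 genes with ribosomal protein symbols 2 were higher (4.35%) and 1 lower, the last being Rps6ka5, a kinase gene (-0.62 ± 0.18). Respiratory chain genes had 6 of 89 higher (6.74%) and 12 lower, and no member of either group reached 2-fold. These small counts moved both ways with single arrays. Without XX Ctr replicate 1, 2 respiratory chain genes were higher and 17 lower. There was 1 higher without XY Ctr replicate 3, and there were 9 without XX Ctr replicate 4. The lower ones numbered 7 without XX Ctr replicate 3, and 15 with the mean of each gene's probe sets. No ribosomal gene was higher without XX Ctr replicate 1 or XY Ctr replicate 3. Of 35 tested genes of protein folding and stress in the secretory pathway 8 were higher (22.9%) and 5 lower, again with none at 2-fold. The collagen-secretion regulator gene Creb3l1 had the largest difference (0.93 ± 0.12).

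The comparison of XY Ctnnb1KO with XX Sox9KO, in arrays that the controls do not share, called 2070 autosomal genes higher (18.3%) and 2250 lower (19.9%). Of the 2045 genes higher between the controls, 1585 (77.5%) were called higher there too, and of the 2206 lower genes 1671 (75.7%) were called lower. None was called in the opposite direction. These groups had been taken for their closeness to the controls, so the likeness is no independent support for the calls. The shares rose with the size of the control difference: 70.4% and 71.3% of higher and lower genes under 2-fold, 98.9% and 88.7% of those between 2-fold and 4-fold, and all 147 higher and all 111 lower genes of 4-fold or more.

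Sizes were close for many named genes and not for all. Sostdc1 differed by 5.17 ± 0.26 between XY Ctnnb1KO and XX Sox9KO, Gsta2 by 5.15 ± 0.20, Cbln1 by 5.42 ± 0.22, Calb1 by -5.15 ± 0.26 and Tnfrsf19 by -4.19 ± 0.09. Ccl17 was at 6.26 ± 0.32 there, Npy at 4.48 ± 0.22, Stra8 at -5.03 ± 0.32 and Stum at -4.20 ± 0.24. Smoc2, at 3.04 ± 0.20, and Dlx3, at -2.61 ± 0.26, were nearer 0 than between the controls. The erythroid gene Klf1, at -1.71 ± 0.46 between the controls, was at -0.63 between the knockouts, and Mt2, at -1.71 ± 0.42, was at -0.74. The difference between the 2 comparisons was not tested for any gene.

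**Figure D5:**
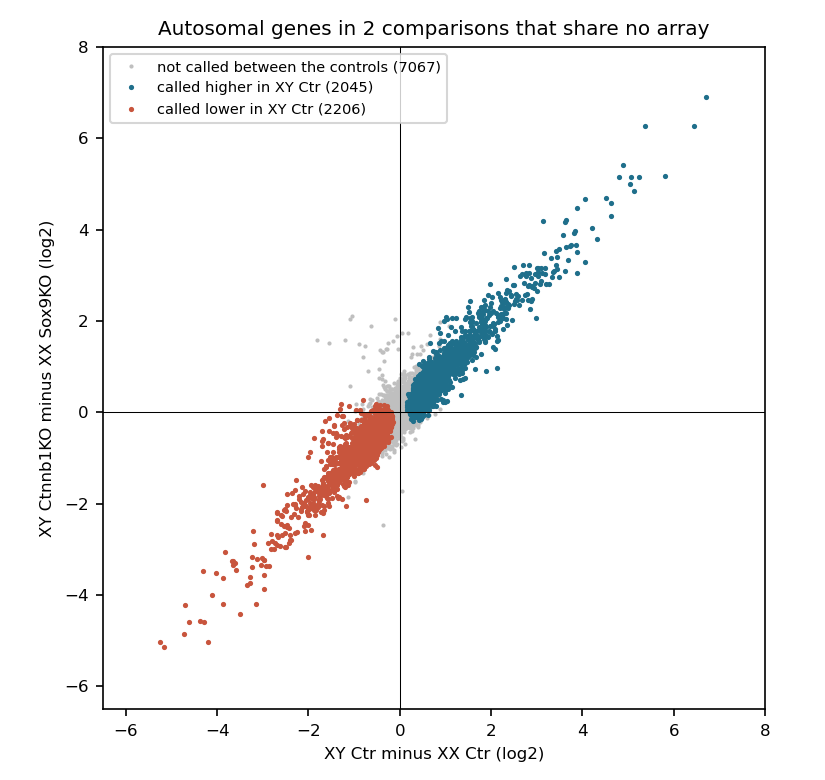
Each point is an autosomal gene, with the log2 difference XY Ctr minus XX Ctr on the horizontal axis and XY Ctnnb1KO minus XX Sox9KO on the vertical axis; colours mark the 2045 genes called higher and the 2206 called lower between the controls. No gene called between the controls is called in the opposite direction between the knockouts, and the largest differences lie near the diagonal.

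Some of the large differences were in neighbouring genes, counted among tested genes only and with predicted genes skipped. In 12 places 2 or more such neighbours differed at least 4-fold in the same direction (GRCm38, RefSeq). The number of such places that chance would give was not estimated. On chromosome 7 Lypd4 overlaps Dmrtc2 (-2.98 ± 0.48), with Tex101 as the next tested gene 192.6 kb away. Foxl2os and Foxl2 lay 0.3 kb apart on chromosome 9, Sstr4 and Thbd, the thrombomodulin gene (2.81 ± 0.13), 7.7 kb apart on chromosome 2, and Hsd3b1 and Hao2 14.7 kb apart on chromosome 3. Lefty2 and Lefty1 lay 35.9 kb apart on chromosome 1, and Tmem174 and Tmem171 48.8 kb apart on chromosome 13. In the other runs Syn2, a synapsin gene (-2.54 ± 0.32), and Pparg lay 78.3 kb apart, and Lypd6b and Lypd6 (-2.70 ± 0.17) 117.6 kb. Cnmd, the chondromodulin gene (2.50 ± 0.31), and Pcdh8 lay 104.6 kb apart, and Gtsf1l (2.16 ± 0.40) and Tox2 (2.33 ± 0.24) 113.5 kb. Egflam (2.05 ± 0.16) and Gdnf lay 411.3 kb apart, and Kcns2 and the odd-skipped factor gene Osr2 (3.61 ± 0.21) 452.7 kb.

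Where a gene had several probe sets, they mostly gave the same answer. Of 364 called genes of at least 2-fold with another tested probe set, 341 had another called in the same direction and none had one called the opposite way. Among 5595 genes with 2 or more tested probe sets, 25 had probe sets called in opposite directions. The largest gaps were in Phospho2, a phosphatase gene, with probe sets from -1.17 ± 0.17 to 0.54 ± 0.18, Ints6, an Integrator subunit gene, from -0.96 ± 0.15 to 0.59 ± 0.11, and Ackr4, a decoy chemokine receptor gene, from -0.73 ± 0.19 to 0.72 ± 0.09. Asph, an aspartate hydroxylase gene with several products, ran from -0.67 ± 0.15 to 0.46 ± 0.14, and Farsb, a tRNA synthetase subunit gene, from -0.22 ± 0.08 to 0.86 ± 0.18. No direction is given for these 5 genes.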

How the data were processed

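The deposited values are signal intensity per probe set on a linear scale, which the authors made with MAS5, per the submitters' processing notes, without a version or settings. Per the labels' protocols, 40 ng of total RNA per sample was amplified and labelled with biotin, which can favour transcript ends. The trimmed mean was 500 on all 31 arrays, and the array medians of the 8 control arrays ran from 149.6 to 168.8. With 4 arrays a group, array number sets the precision, and there is no read depth to give.

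Of 45101 probe sets, 64 controls, 932 with several gene symbols and 9160 with none were left out. By Entrez identifier 34741 of the other 34945 matched RefSeq, which changed 0 symbols. Each gene was read from its brightest probe set by the mean of the 31 arrays. Genes above their array's median on at least 3 of the 31 arrays were tested, so a gene high in 1 group can enter through that group alone. limma 3.58.1 (R 4.3.3) fitted 8 group means to log2(signal + 16) with a trended prior, and p-values were adjusted (Benjamini-Hochberg) over all 11779 genes tested. The pseudocount of 16 understates differences of dim genes. X- and Y-linked genes were set aside after the fit. Levels were not compared between probe sets. The fitting script was first tested on simulated data.

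Named genes were the 20 largest non-overlapping differences each way without classic markers and predicted genes, up to 4 called members of each of 48 gene lists each way with others that show what was not called, neighbours at least 4-fold apart the same way, and the 5 genes whose probe sets disagreed most. Further members of the lists and genes outside the rule, such as Sp5, Lef1, Mc2r, Agt, Crhr1, Pcsk5, Tcf21, Nodal, H2-M3 and H2-T24, were named after their values were seen. The comparison, lists and rules were chosen with earlier results of these data known. Alternatives were pseudocounts of 1 and 64, quantile normalization, no filter, a filter on the 2 groups compared, the mean of a gene's probe sets, only the 8 arrays compared, the replicate number as a block and leaving out each array.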

Additional observations from a re-analysis of the deposited data

Results flagged for a closer look

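Among the genes named here, 424 groups of 4 arrays (a gene in XY Ctr or in XX Ctr) were examined for an array far from the other 3, by the gap to its nearest neighbour over the range of the group (Dixon's test). There were 28 such cases, and chance gives about 1 in 20 groups.

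In XY Ctr, replicate 1 was highest for Fat3 (signal 1134.3, the others 964.4 to 986.5), H2-D1 (152.9, the others 75.2 to 82.2) and Nr5a1 (2649.1, the others 2475.2 to 2504.1). Replicate 2 was highest for Dmrt1 (866.7, the others 695.3 to 710.1) and lowest for Stum (5.8, the others 32.5 to 37.4), Mov10l1 (279.8, the others 484.3 to 501.6) and H2-T24 (347.1, the others 395.1 to 400.8). Replicate 3 was highest for Krt19 (418.6, the others 347.9 to 356.0). Replicate 4 was highest for Smoc2 (1292.5, the others 1078.4 to 1106.0) and Insyn2b (28.1, the others 10.4 to 12.6) and lowest for Nap1l4 (2849.6, the others 3161.7 to 3189.1).

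In XX Ctr, replicate 1 was highest for Smoc2 (98.2, the others 51.7 to 53.0), Adh1 (158.2, the others 107.4 to 110.3), Adamts5 (193.3, the others 137.4 to 141.8) and Itga9 (1676.3, the others 1101.2 to 1155.3), and lowest for Rasgrp1 (323.6, the others 464.3 to 489.1), Rec8 (2401.9, the others 2782.1 to 2864.5), Erbb3 (133.1, the others 191.5 to 205.7) and Cd81 (7125.7, the others 8636.6 to 8939.1). Replicate 2 was highest for Lefty1 (14.0, the others 2.2 to 2.8), Tdgf1 (39.4, the others 7.6 to 11.0) and H2-T24 (425.1, the others 280.7 to 299.2), and lowest for Krt8 (1348.8, the others 1707.1 to 1749.1). Replicate 3 was highest for Sema4f (299.3, the others 256.0 to 258.2) and Dmrtc2 (644.2, the others 355.0 to 380.6), and lowest for Plin2 (2202.2, the others 2363.9 to 2378.6). Replicate 4 was highest for Ccl17 (45.3, the others 13 to 15.7) and Tcf21 (2872.9, the others 2427.7 to 2466.5). Of the 28 cases, 17 were in XX Ctr and 8 of those in its replicate 1.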

How the results depend on the processing

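The numbers of genes called stayed within 1.5 times the reported ones under all alternatives. Higher in XY Ctr were 1892 to 2265 genes over the other settings and 1808 to 2003 when 1 array was left out, against 2045, and lower were 2012 to 2416 and 1906 to 2185, against 2206. At 2-fold, 395 to 670 genes were higher (492 to 525 without 1 array) and 366 to 658 were lower (471 to 520). For XY Ctnnb1KO against XX Sox9KO, 1921 to 2391 genes were higher (1811 to 1995 without 1 array) and 2067 to 2377 lower (1921 to 2136). With the replicate number as a block, 2029 and 2191 genes were called between the controls. Deviations of same-numbered controls correlated at 0.041, 0, 0.139 and -0.158, so the numbers were not taken as pairing the samples, and only replicate 3 correlated best with its own number. The block changed none of the calls of 212 named genes. Over these genes and all settings, 31 values lost their call in 9 genes, 7 gained one in 6 genes and 4 changed sign. The sign changes were Mlh3 (-0.17 to 0.00 with 1 array left out, 0.00 without XX Ctr replicate 3), Igf2 (-0.13 to 0.01, the last without XY Ctr replicate 1), and with the mean of all probe sets Phospho2 (-0.58) and Farsb (0.08), whose probe sets disagree. With that mean Trip13 was called higher (0.26, adjusted p = 0.0486), so 1 meiotic gene was then higher. Dmrt1 was called with only the 8 arrays (adjusted p = 0.00323), and Igf2 with quantile normalization (-0.17, adjusted p = 0.0404). The cause of these changes was not tested. Genes under the filter were not described, and dim signals limit the differences of genes near the bottom of the scale.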
